A study of Homo sapiens with 8 samples.

Results

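The genes described here are the membrane trafficking genes named RAB, COP, SEC, TRAPPC, ARF or SAR1 in a study of HEK293T cells without XRN1. They were taken by symbol from the deposited table of counts: RAB, SEC or ARF followed by a number, TRAPPC followed by its number, SAR1A, SAR1B and the subunits of the COPI coat, leaving out hyphenated names. This gave 95 of the 10105 genes in the table, of which 42 are RABs. The symbol rule uses no measured value, and it was set with earlier results of these data known. HEK293T is a human embryonic kidney line that carries the SV40 large T antigen. WT cells were compared with an XRN1-null line made from them by CRISPR/Cas9, in which a frameshifting deletion lies in a coding exon of XRN1, the main cytoplasmic 5′-3′ exoribonuclease. The mutant is a single edited line, so effects of the edit and of its isolation cannot be told apart. All cells were plated 24 h before harvest, and each genotype had 2 biological replicates in each assay, 8 libraries in all. RNA-Seq counts measure mRNA level, and Ribo-Seq counts of ribosome-protected fragments (RPF) measure how many ribosomes sit on the mRNAs of a gene.

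Proteins that leave the cell or reside in its membranes enter the endoplasmic reticulum (ER) through the SEC61 channel, where signal peptidase removes their leader. The small GTPase SAR1 then builds the COPII coat of SEC23, SEC24, SEC13 and SEC31 that carries cargo to the Golgi, and ARF GTPases build the COPI coat that returns it. TRAPP complexes tether vesicles and activate RABs, a large family of small GTPases that give each organelle its identity and recruit its motors and tethers.

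RNA-Seq libraries held 33757487 to 38145433 counts and Ribo-Seq libraries 1921641 to 4399542, and the trafficking genes took 0.949 to 0.964% and 0.857 to 0.924% of them. Per trafficking gene the lowest count in RNA-Seq was 79 and that in Ribo-Seq 5, so RPF values of rare genes are the least precise. The replicates of a group differed beyond counting error. In RNA-Seq the chi-square per degree of freedom was 24 for the WT pair and 3.84 for the XRN1-null pair. In Ribo-Seq it was 7.77 for the WT pair and 2.02 for the XRN1-null pair. This measure grows with depth, so its values do not rank the pairs of different assays. The RNA-Seq totals are far above the mapped reads given in the methods of the study, and if both mates of a pair were counted, these totals overstate the depth and the RNA-Seq chi-square values are too high. XRN1 itself was at 33.5 and 33.0 CPM (counts scaled to a common library size) of mRNA in WT and at 282 and 253 CPM in XRN1-null, and at 34.4 and 49.8 CPM of RPF in WT and 22.6 and 18.4 CPM in XRN1-null. Its mRNA was higher in the mutant, so the mRNA count does not show the loss, while its RPF relative to mRNA fell (change in RPF relative to mRNA −4.09 on the log2 scale, FDR 1.66e-06). The study reports from its RNA-Seq a retained intron in every XRN1 transcript it could detect, and no detectable XRN1 protein by western blot. Of the markers listed for HEK293T, 6 of 7 were in the table (PAX2 was not), and of those for other cell types 1 of 13, COL1A1, at 13.9 and 15.4 CPM in WT and 36.9 and 37.3 CPM in XRN1-null. Its part in the results was not tested. In such bulk libraries fewer cells of a type and less RNA per cell cannot be told apart.

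Trafficking mRNAs moved in both directions. Of the COPII coat genes 7 of 12 mRNAs rose in XRN1-null cells, while 5 of 8 fell among the SEC61 channel and signal peptidase and 3 of 5 among the ARFs, and 32 of 42 RABs were not called. CPM were scaled by TMM factors within an assay, and a gene was called when the FDR of edgeR's quasi-likelihood test, adjusted by Benjamini-Hochberg over all genes, was below 0.005. By this rule 17 of the 95 mRNAs rose and 21 fell, 40% in all. The same rule called 46.1% of all genes in the table, 22.9% as higher and 23.2% as lower, a share near that of the trafficking genes. Fewer trafficking mRNAs were called without XRN1-null RNA-Seq replicate 1 or 2, where fewer of all genes were called too. Their median log2 changes in those fits were −0.05 and −0.07. CPM from library totals alone gave 22 rises and 15 falls, where 45.4% of all genes were called. Over the 95 genes the median log2 change was −0.06, beside −0.02 over all genes, and the extremes were SEC14L2 at 1.29 and RAB39A at −1.85. The 2 libraries of each genotype did not overlap for 33 mRNAs that were higher and 45 that were lower in XRN1-null, where 41% and 43.7% of all genes had such a pattern.

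**Figure D1:**
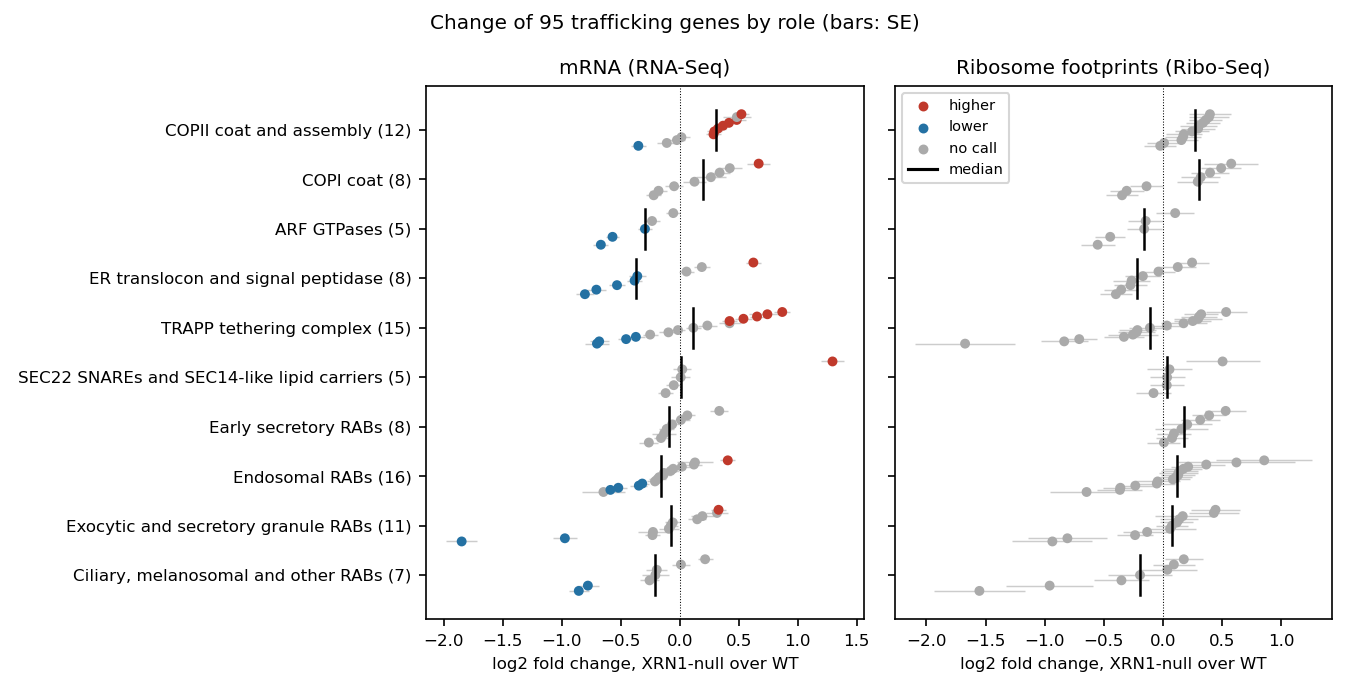
Log2 fold change (x axis) of the 95 genes grouped by role (y axis, number of genes in brackets), for mRNA on the left and ribosome footprints on the right, with bars for the SE, colours for the call at an FDR below 0.005 and a vertical line for the median of each group. COPII genes lie to the right with a median of 0.31 in mRNA and translocon genes to the left with a median of −0.37, and no footprint value is called.

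Among the 12 genes of the COPII coat and its assembly, 7 mRNAs rose, 1 fell and 4 were not called, with a median log2 change of 0.31. The 4 SEC24 isoforms, which bind cargo and so choose what enters the vesicle, were higher in both XRN1-null libraries than in either WT library. SEC24A was at 57.7 and 54.4 CPM in WT and 71.1 and 69.0 CPM in XRN1-null, a log2 change of 0.32 ± 0.07 (SE, n = 2 per genotype, FDR 0.00333). SEC24B was at 53.6 and 54.9 CPM against 71.3 and 73.6 CPM (0.42 ± 0.06, FDR 0.000771). In both genes the groups did not overlap, and the gap between genotypes was larger than that between replicates. SEC24C (0.37 ± 0.06, FDR 0.00133) and SEC24D (0.48 ± 0.08, FDR 0.00146) moved by similar amounts.

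Genes of the outer coat and of ER exit sites rose as well. SEC31A, the rod of the outer cage, went from 145 and 154 CPM to 184 and 182 CPM (0.29 ± 0.06, FDR 0.00486). SEC16A, the scaffold of ER exit sites, went from 159 and 157 CPM to 233 and 219 CPM (0.52 ± 0.06, FDR 0.000295), the largest rise of the group. SEC23IP, a SEC23-binding phospholipase-like protein, rose by 0.29 ± 0.06 (FDR 0.00478). SAR1A, which starts coat assembly, was the one mRNA that fell, from 177 and 167 CPM to 134 and 136 CPM (−0.35 ± 0.06, FDR 0.00194), and its near copy SAR1B was at −0.03 ± 0.07 (FDR 0.757). The GTPase-activating subunits SEC23A (0.01 ± 0.07) and SEC23B (0.48 ± 0.12, FDR 0.00795) and the cage subunit SEC13 (−0.11 ± 0.08) were not called. SEC23B was at 61.7 and 80.5 CPM in the WT libraries, so its WT replicates were further apart than those of its partners. The calls depend on both XRN1-null libraries: without XRN1-null RNA-Seq replicate 1 the test called 0 of the 7 rises and without replicate 2 it called 2, with group medians of 0.29 and 0.32. Leaving out the same libraries lowered the share of all genes called to 27.2% in each case.

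Of the 8 COPI subunits, which form the coat of retrograde vesicles as a preassembled complex, only COPA was called. Without WT RNA-Seq replicate 1 the test called 3 higher and 2 lower, and without WT RNA-Seq replicate 2, 5 higher and 1 lower, in fits that called 62.4% and 67.3% of all genes. With library totals or DESeq2 3 were called higher, and with RLE factors 2. COPA, the α subunit that binds retrieval signals, was at 166 and 204 CPM in WT and 294 and 294 CPM in XRN1-null (0.67 ± 0.10, FDR 0.000691). The other large subunits were higher in both XRN1-null libraries than in WT without passing the test. COPB1 went from 120 and 140.0 CPM to 161 and 167 CPM (0.34 ± 0.08, FDR 0.00862), and COPG1 from 96.9 and 117 CPM to 136 and 151 CPM (0.42 ± 0.10, FDR 0.00681). COPB2 was at 116 and 158 CPM in WT against 161 and 168 CPM (0.26 ± 0.13, FDR 0.109), and ARCN1, the δ subunit, overlapped between genotypes (0.12 ± 0.10). For each of these subunits WT replicate 1 was the lower of the WT pair, by the largest ratio in COPB2. The small subunits COPE (−0.18 ± 0.08), COPZ1 (−0.22 ± 0.06) and the second γ subunit COPG2 (−0.05 ± 0.08) had values below 0 and were not called.

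ARF GTPases recruit COPI and other coats, and 3 of the 5 fell while none rose. Without XRN1-null RNA-Seq replicate 1 the test called 1 fall, and without replicate 2, with RLE factors or with library totals it called 2. Of all genes 23.2% were called lower with every library, and in those fits 27.2% (without either XRN1-null library) and 45.4% (RLE factors or library totals) were called in either direction. ARF1, the main Golgi ARF, was the trafficking gene with the highest WT level per length, 493 CPM per kb of gene width. Its mRNA went from 1079.7 and 1089.6 CPM to 718 and 743 CPM (−0.57 ± 0.06, FDR 0.000129). ARF5 fell from 181 and 173 CPM to 112 and 111 CPM (−0.67 ± 0.06, FDR 8.64e-05) and ARF4 from 227 and 216 CPM to 182 and 179 CPM (−0.30 ± 0.06, FDR 0.00425). ARF3 (−0.24 ± 0.07, FDR 0.0205) and the plasma membrane form ARF6 (−0.06 ± 0.06, FDR 0.438) were not called. ARF5 and ARF4 belong to the same class of ARFs, and both were lower in XRN1-null in both replicates.

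The 8 genes of the ER translocon and signal peptidase had 5 mRNAs that fell and 1 that rose, with a median of −0.37. Of all genes 23.2% were called lower and 22.9% higher. SEC61G, the γ subunit that clamps the channel, was at 118 and 108 CPM in WT and 67.3 and 62.0 CPM in XRN1-null (−0.81 ± 0.08, FDR 8.73e-05). SEC61B, the β subunit, went from 114 and 105 CPM to 74.9 and 76.2 CPM (−0.53 ± 0.07, FDR 0.000331). These subunits were, with ARF1, the trafficking genes of the highest WT mRNA level per length, 243 and 195 CPM per kb. SEC61A1, the pore itself, went from 381 and 428 CPM to 312 and 318 CPM (−0.36 ± 0.07, FDR 0.00357). The catalytic subunits of signal peptidase, SEC11A (−0.38 ± 0.07, FDR 0.00145) and SEC11C (−0.71 ± 0.08, FDR 0.000204), fell as well. SEC62 (0.06 ± 0.06) and SEC63 (0.19 ± 0.07, FDR 0.0407), which serve post-translational import, were not called. Fewer of the 5 falls were called without XRN1-null RNA-Seq replicate 1 or 2, where fewer of all genes were called too. The group medians in those fits were −0.38 and −0.37.

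SEC61A2, a second gene for the pore, went the other way: 42.9 and 42.6 CPM in WT against 65.0 and 66.6 CPM in XRN1-null (0.62 ± 0.06, FDR 0.000109). SEC61A1 and SEC61A2 were the only pair among 22 groups of paralogs with calls of opposite direction. SEC61A1 lies at chr3:127770484-127790548 and SEC61A2 at chr10:12171636-12211960 of hg19, both on the plus strand, and each codes for 1428 bases with its stop codon. The coding sequences are 78.0% identical, differ at 314 positions and share no run as long as a 29-base footprint, the longest being 20 bases. Coding bases 809 to 928 are printed around that run, counted from the A of the start codon of the GENCODE canonical transcripts, with the 17 differing bases in capitals.
SEC61A1: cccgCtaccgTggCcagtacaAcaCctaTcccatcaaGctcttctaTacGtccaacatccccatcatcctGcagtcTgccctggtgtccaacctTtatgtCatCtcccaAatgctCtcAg
SEC61A2: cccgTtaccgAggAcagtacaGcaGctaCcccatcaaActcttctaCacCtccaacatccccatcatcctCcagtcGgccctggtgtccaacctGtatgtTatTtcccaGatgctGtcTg
The differing bases are spread along the stretch, so a footprint inside the printed stretch holds at least 1 of them. SEC61A2 overlaps NUDT5 on the other strand, and SEC61A1 overlaps RUVBL1 and MGLL on the other strand. A library kit that does not mark strand cannot separate the shared bases. NUDT5 had a log2 change of 0.01 in mRNA (FDR 0.894) and −0.11 in RPF. RUVBL1 had a log2 change of −0.265 in mRNA (FDR 0.0626) and −0.137 in RPF. Whether reads of these neighbours contribute to SEC61A2 or SEC61A1 was not tested.

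**Figure D2:**
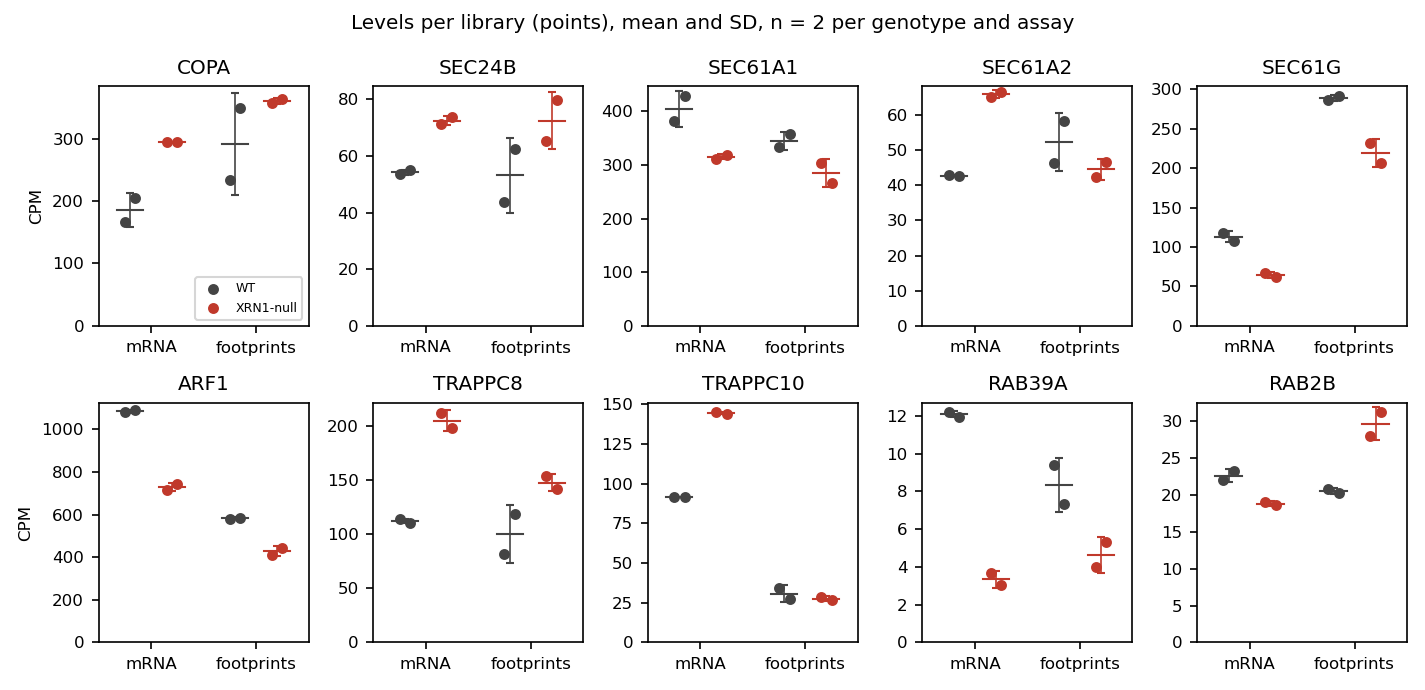
CPM (y axis, from 0) of 10 trafficking genes in each library, for mRNA and for ribosome footprints, as points with the mean and SD of 2 libraries per genotype. SEC61A2 mRNA is higher in both XRN1-null libraries (65.0 and 66.6 CPM) than in WT while its footprints overlap, and SEC61A1 and SEC61G are lower in both assays.

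TRAPP is a set of complexes built on a shared core that activate RABs at the Golgi. Of its 15 mRNAs 5 rose and 4 fell (33.3% and 26.7%), beside 22.9% and 23.2% of all genes. The counts were 3 and 2 without XRN1-null RNA-Seq replicate 1 and 3 and 3 without replicate 2, where 27.2% of all genes were called. Of the subunits particular to the larger TRAPPII and TRAPPIII complexes, TRAPPC8, TRAPPC10 and TRAPPC11 rose and TRAPPC9, TRAPPC12 and TRAPPC13 were not called. TRAPPC8, a TRAPPIII subunit, went from 114 and 111 CPM to 212 and 198 CPM (0.87 ± 0.07, FDR 3.62e-05). TRAPPC10, a TRAPPII subunit, was at 91.8 and 91.6 CPM in WT and 145 and 144 CPM in XRN1-null (0.65 ± 0.06, FDR 8.16e-05), and TRAPPC11 rose by 0.42 ± 0.06 (FDR 0.000811). TRAPPC9, the partner of TRAPPC10 in TRAPPII, was at 0.23 ± 0.08 (FDR 0.0384), TRAPPC12 at −0.10 ± 0.08 and TRAPPC13 at −0.02 ± 0.06. Of the 9 TRAPP genes under 700 coding bases 4 fell and 2 rose. TRAPPC6A went from 14.2 and 14.5 CPM to 9.17 and 8.48 CPM (−0.70 ± 0.10, FDR 0.00055), TRAPPC5 by −0.68 ± 0.08 (FDR 0.000257), TRAPPC2L by −0.46 ± 0.07 (FDR 0.000982) and TRAPPC1 by −0.37 ± 0.08 (FDR 0.00382). TRAPPC6B, the paralog of TRAPPC6A, was at 51.7 and 42.8 CPM in WT and 64.5 and 62.1 CPM in XRN1-null (0.42 ± 0.09, FDR 0.00513) and was not called, as were the core subunits TRAPPC3 (−0.25 ± 0.06, FDR 0.00945) and TRAPPC4 (0.11 ± 0.07, FDR 0.159).

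TRAPPC2, the core subunit sedlin, and its intronless copy TRAPPC2B both appeared as rises, TRAPPC2 from 30.75 and 28.96 CPM to 44.6 and 42.2 CPM (0.54 ± 0.07, FDR 0.000464) and TRAPPC2B from 2.68 and 2.86 CPM to 4.36 and 4.91 CPM (0.74 ± 0.16, FDR 0.004). Many of their coding reads cannot be told apart, as the first 240 of the 420 coding bases show. TRAPPC2 is at chrX:13730363-13752754 on the minus strand and TRAPPC2B at chr19:57874919-57876773 on the plus strand of hg19. Capitals mark the 5 differing bases in this stretch, of 6 in the whole coding sequence.
TRAPPC2: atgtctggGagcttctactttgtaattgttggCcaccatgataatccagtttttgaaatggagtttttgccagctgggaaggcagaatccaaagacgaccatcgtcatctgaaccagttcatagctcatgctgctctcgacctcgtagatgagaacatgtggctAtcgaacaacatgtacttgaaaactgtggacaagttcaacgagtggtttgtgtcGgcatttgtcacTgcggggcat
TRAPPC2B: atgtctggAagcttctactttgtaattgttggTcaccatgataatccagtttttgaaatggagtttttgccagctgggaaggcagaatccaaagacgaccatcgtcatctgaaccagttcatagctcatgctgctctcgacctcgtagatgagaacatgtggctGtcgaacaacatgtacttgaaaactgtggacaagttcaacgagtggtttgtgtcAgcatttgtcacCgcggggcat
The coding sequences are 98.6% identical with a shared run of 131 bases, and 66.3% of the 29-base stretches of each occur in the other. Their canonical transcripts have 3′ untranslated regions of 2165 bases in TRAPPC2 and 152 in TRAPPC2B, which were not compared. How reads that map to both were counted is not given in the sources used here. How much of each change comes from shared reads was not tested.

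Of the 42 RABs 2 rose and 8 fell (23.8% called), beside 28 of the 53 other trafficking genes (52.8%), a difference that was not tested. The RAB counts were 0 rises and 6 or 5 falls without XRN1-null RNA-Seq replicate 1 or 2, 4 and 11 without WT RNA-Seq replicate 1, and 6 and 13 without WT RNA-Seq replicate 2. Of all genes 46.1% were called with every library, 27.2% without either XRN1-null library, and 62.4% and 67.3% without WT RNA-Seq replicate 1 and 2. None of the 8 RABs of the early secretory pathway was called in mRNA, though 1 was called higher with RLE factors, library totals or DESeq2, and without either WT library. RAB1A (−0.11 ± 0.06) and RAB1B (−0.07 ± 0.06), which act between ER and Golgi, RAB2A (0.06 ± 0.06), RAB6A (−0.16 ± 0.06), RAB18 (0.01 ± 0.08) and RAB33B (−0.13 ± 0.11) had an FDR above 0.05. RAB6B, of Golgi transport in neurons, was at 25.02 and 27.28 CPM in WT and 32.75 and 33.14 CPM in XRN1-null (0.33 ± 0.08, FDR 0.00642), and RAB2B was at −0.26 ± 0.08 (FDR 0.022). Of 16 endosomal RABs, RAB5A, which controls fusion of early endosomes, rose from 60.7 and 63.7 CPM to 82.7 and 82.0 CPM (0.41 ± 0.06, FDR 0.000949). Its paralogs RAB5B (−0.14 ± 0.06, FDR 0.0822) and RAB5C (−0.21 ± 0.06, FDR 0.0199) had values of the other sign and were not called. RAB31 fell from 91.1 and 88.8 CPM to 63.0 and 56.6 CPM (−0.59 ± 0.07, FDR 0.000306) and its paralog RAB22A was at −0.08 ± 0.07. RAB4A, of fast recycling, fell by −0.52 ± 0.07 (FDR 0.00046), RAB9A, of transport from endosomes to the Golgi, by −0.35 ± 0.07 (FDR 0.0035) and RAB11A, of recycling endosomes, by −0.32 ± 0.06 (FDR 0.00245). RAB4B (0.13 ± 0.15) and RAB11B (−0.19 ± 0.07, FDR 0.0403) were not called. RAB7A, of late endosomes and lysosomes, was at −0.18 ± 0.06 (FDR 0.0412). RAB20, with RPF counts of 7 and 8 against 16 and 11, was among the least abundant genes, at 2.35 CPM of mRNA per kb, beside SEC14L2 at 1.83 and TRAPPC9 at 2.52.

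The strongest fall of any trafficking gene was in RAB39A, a RAB of endosomes and autophagy. Its mRNA counts were 432 and 393 in WT and 139 and 118 in XRN1-null, or 12.2 and 12.0 CPM against 3.67 and 3.03 CPM (−1.85 ± 0.13, FDR 2.71e-05), so that XRN1-null cells held 0.277 of the WT level. Its paralog RAB39B, at chrX:154487520-154493776, fell as well, from 19.5 and 18.6 CPM to 9.04 and 10.4 CPM (−0.98 ± 0.10, FDR 0.000146). RAB39A is at chr11:107799174-107834208, each gene has a single annotated transcript, and their coding sequences are 73.7% identical with no run shared over more than 17 bases, so no 29-base stretch is shared. RAB34, of Golgi position and cilia, rose by 0.33 ± 0.07 (FDR 0.00324).

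Among RABs, the next falls in size were in RAB40B (chr17:80612849-80656574 of hg19) and RAB40C (chr16:639357-679272), which carry a SOCS box and act as receptors of a ubiquitin ligase. RAB40B went from 46.1 and 41.0 CPM to 24.6 and 23.5 CPM (−0.86 ± 0.08, FDR 0.000105) and RAB40C from 28.3 and 30.6 CPM to 16.2 and 18.1 CPM (−0.78 ± 0.09, FDR 0.000238). Their coding sequences are 79.7% identical, and bases 40 to 94 of RAB40B occur in RAB40C without a difference, which is long enough for a footprint to map to both.
RAB40B and RAB40C, shared: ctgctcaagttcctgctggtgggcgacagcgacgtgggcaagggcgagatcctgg
This run holds 27 starting points of 29-base fragments, and over the whole coding sequences the pair shares 32 stretches of that length.

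SEC14L2, a lipid carrier that binds tocopherol, had the largest rise of any trafficking mRNA, from 9.29 and 8.47 CPM to 22.2 and 21.4 CPM (1.29 ± 0.09, FDR 3.02e-05). Its annotation overlaps a readthrough gene that holds 47.6% of its 29-base coding stretches, and the share of the rise that lies in that transcript cannot be told apart from its own. The SNARE SEC22B was at −0.12 ± 0.06, and none of the other members of its group was called. Over all trafficking genes, 55 shared under 1% of their 29-base coding stretches with another gene and 9 shared over 50% (RAB4B, RAB5C, RAB13, RAB24, ARF3, SEC22B, TRAPPC2, TRAPPC2B and TRAPPC5), where levels cannot be assigned to a single gene with certainty.

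Ribosome footprints gave 0 called trafficking genes, in either direction, where 1.77% of all genes were called (0.633% higher, 1.14% lower). DESeq2 called 0 as well, and 26 of 95 had an unadjusted p below 0.05, where 33% of all genes did. Without WT Ribo-Seq replicate 2, 12 genes were called higher and 10 lower, where 23.4% of all genes were called, and without WT Ribo-Seq replicate 1, 7 were called lower, where 12.8% of all genes were called. Ribo-Seq libraries were the shallower ones, and the biological coefficient of variation was 9.84% for RPF and 6.02% for mRNA. Genotypes did not overlap for 36 genes with higher and 26 with lower footprints, where all genes gave 32.1% and 32.3%. Among called mRNAs the direction mostly matched: 14 of the 17 genes whose mRNA rose had more footprints and 20 of the 21 whose mRNA fell had fewer (82.4% and 95.2%), beside 83.1% and 94.1% of all genes with such calls. Of the 57 genes with no mRNA call 32 had the same sign in both assays, which makes 66 of 95 in all, beside 7684 of all 10105 genes. Across the 95 genes the log2 changes of both assays had a Pearson r of 0.67, as over all genes (0.67). Genes are not replicates.

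At an FDR below 0.05, 6 trafficking genes had lower and 0 had higher footprints, where 8.38% and 7.07% of all genes passed. ARF1 was at 580.3 and 585 CPM of RPF in WT and 411 and 445 CPM in XRN1-null (−0.45 ± 0.13, FDR 0.0375). ARF5 was at 145 and 128 CPM against 88.6 and 96.8 CPM (−0.55 ± 0.14, FDR 0.0243). TRAPPC2L was at 73.4 and 64.1 CPM against 43.7 and 39.3 CPM (−0.71 ± 0.15, FDR 0.0116). In each of them both XRN1-null libraries lay below both WT libraries, as in mRNA. TRAPPC5 (−0.84 ± 0.20, FDR 0.0173), TRAPPC6A (−1.67 ± 0.43, FDR 0.0231) and RAB40B (−1.55 ± 0.39, FDR 0.0214) complete the group. TRAPPC6A rested on RPF counts of 27 and 30 against 12 and 9, and RAB40B on 22 and 31 against 11 and 10. COPII footprints were above 0 in 11 of 12 genes with a median of 0.27, beside 5008 of 10105 genes and a median of −0.003 over all genes, and COPI footprints in 5 of 8 with a median of 0.31. The COPI median was 0.09 without WT Ribo-Seq replicate 1 and 0.62 without WT Ribo-Seq replicate 2, where 5 COPI genes were called higher and 1 lower, 4 COPII genes were called higher and 23.4% of all genes were called. The widest of these, COPB2, was at 143 and 269 CPM in WT and 294 and 331 CPM in XRN1-null (0.58 ± 0.23, FDR 0.0999), so the WT replicates differed from each other by more than WT replicate 2 did from either mutant library. All 8 early secretory RABs had footprint values above 0 (0.01 to 0.53), and none was called. Their median of 0.18 was 0.08 without XRN1-null Ribo-Seq replicate 1, and 1 of them was called higher without WT Ribo-Seq replicate 2.

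**Figure D3:**
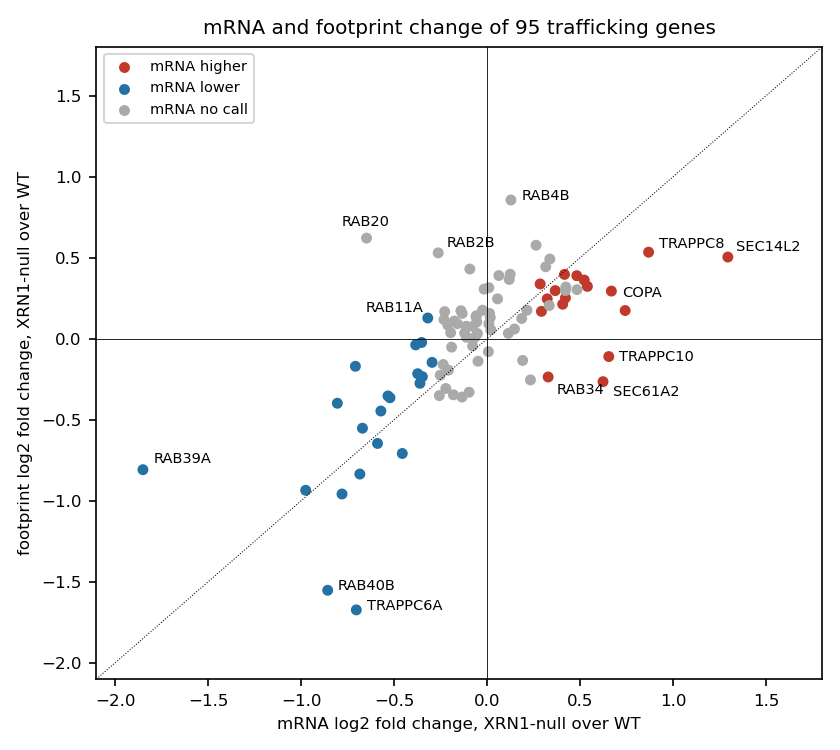
Log2 fold change of ribosome footprints (y axis) against that of mRNA (x axis) for the 95 genes, coloured by the mRNA call, with the dotted line marking equal change. The changes rise together (r = 0.67) with 66 of 95 genes of the same sign in both assays, while SEC61A2, TRAPPC10 and RAB34 have raised mRNA and footprint values below 0, and RAB11A has lowered mRNA and a footprint value above 0.

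Translational efficiency (TE), the change in RPF relative to the change in mRNA, came from an interaction term between assay and genotype fitted to all 8 libraries. It fell for 1 trafficking gene and rose for 0, where 1.83% of all genes were called (1.78% lower and 0.0495% higher), and 19 of 95 had an unadjusted p below 0.05, beside 23.3% of all genes. The gene was SEC61A2. Its log2 ratio of RPF to mRNA was 0.11 and 0.45 in the WT replicates and −0.61 and −0.51 in the XRN1-null replicates, a difference of −0.90 ± 0.15 (FDR 0.00406). Its RPF were at 46.4 and 58.1 CPM in WT and 42.5 and 46.5 CPM in XRN1-null (−0.27 ± 0.16, FDR 0.268), so the genotypes overlapped in footprints and separated in mRNA. The call was lost in 6 of the 8 fits that left out 1 library, with differences from −1.01 to −0.68 and FDR values from 0.00113 to 0.054. Both RNA-Seq replicates of XRN1-null and both Ribo-Seq replicates of XRN1-null are among the 6, with WT RNA-Seq replicate 2 and WT Ribo-Seq replicate 2. Thinned to the depth of Ribo-Seq, RNA-Seq gave −0.82 (FDR 0.0222).

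At an FDR below 0.05, 3 trafficking genes had lower and 1 had higher TE, where 6.46% and 1.02% of all genes passed. TRAPPC10 was at 34.4 and 27.1 CPM of RPF in WT and 28.6 and 26.5 CPM in XRN1-null while its mRNA rose, a TE change of −0.76 ± 0.17 (FDR 0.0195). RAB34 was similar, with RPF of 36.98 and 36.29 CPM against 30.05 and 32.15 CPM (TE −0.56 ± 0.15, FDR 0.0388). Together with SEC61A2 these were the 3 genes whose mRNA rose while their footprint value lay below 0. RAB2B, of ER to Golgi transport, was the one gene on the other side: its mRNA was at 22.0 and 23.2 CPM in WT and 19.1 and 18.6 CPM in XRN1-null, and its RPF at 20.8 and 20.2 CPM against 28.1 and 31.2 CPM. Its TE change was 0.79 ± 0.17 (FDR 0.017), from RPF counts of 40 and 88 against 113 and 100. RAB11A, the one gene with lowered mRNA and a footprint value above 0 (0.13 ± 0.14), had a TE change of 0.45 ± 0.14 (FDR 0.0743). Values above 0 were found for 31 of 42 RABs, with a median of 0.16, and for 3 of 15 TRAPP genes, with a median of −0.22, beside 5151 of 10105 genes and a median of 0.01 over all genes. The RAB median was 0.08 without WT Ribo-Seq replicate 2, 0.10 without XRN1-null Ribo-Seq replicate 1 and 0.25 without XRN1-null Ribo-Seq replicate 2, and with RNA-Seq thinned the TRAPP median was −0.11.

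Paralogs of one trafficking gene did not always share a call. In mRNA, 14 of the 22 groups of paralogs had the same call for each member, 7 had 1 called and another not (RAB4, RAB5, RAB11, RAB22A with RAB31, ARF1 with ARF3, SAR1 and TRAPPC6), and 1, SEC61A, had opposite calls. A call in one paralog and none in the other does not show that they differ, and the differences between paralogs were not tested.

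Coding length varied with the mRNA change in trafficking genes as it did in the whole table. Coding sequences came from the canonical transcripts of GENCODE release 44 on GRCh37 (hg19), which gave one for all 95 genes and for 9323 of the table. The models of COPG2 (1201 bases) and SEC22B (575 bases) are incomplete, since their lengths are not multiples of 3, so COPG2, whose paralog COPG1 has 2622 bases, may belong to a longer class. Without such models the correlations below were 0.54 and 0.53 over 93 genes and 0.47 and 0.50 over 9266 genes. Of the 20 trafficking genes with 2000 or more coding bases, 11 mRNAs rose and 0 fell, beside 44.7% and 7.89% of all genes of that length. Of the 57 with fewer than 700 coding bases, 3 rose and 18 fell (5.26% and 31.6%), beside 4.82% and 51.8% of all genes of that length. The genes whose mRNA rose had a median coding length of 3279 bases and those whose mRNA fell 576. The correlation of log2 coding length with the mRNA change was 0.54 (Pearson) and 0.53 (Spearman) over the 95 genes and 0.46 and 0.50 over 9323 genes. These are correlations across genes in the same libraries.

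Role and length overlap in these genes. All 7 COPII rises were among the 9 COPII genes of 2000 or more coding bases, while SAR1A and SAR1B are under 700. In the translocon, 4 of the falls were the 4 genes under 700 bases, and SEC61A1 and SEC61A2 have equal coding lengths and opposite calls. RABs are short, with 35 of 42 under 700 bases, and of these 1 rose and 6 fell, beside 2 rises and 12 falls among 22 other trafficking genes of that size. Within RABs, with coding lengths from 582 bases (RAB22A) to 1020 (RAB12), the correlation of length with mRNA change was −0.10. Among the other members, from 204 bases (SEC61G) to 7071 (SEC16A), it was 0.64. The narrow range of the RABs limits what their coefficient can show. Whether length contributes to the differences between groups was not tested.

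**Figure D4:**
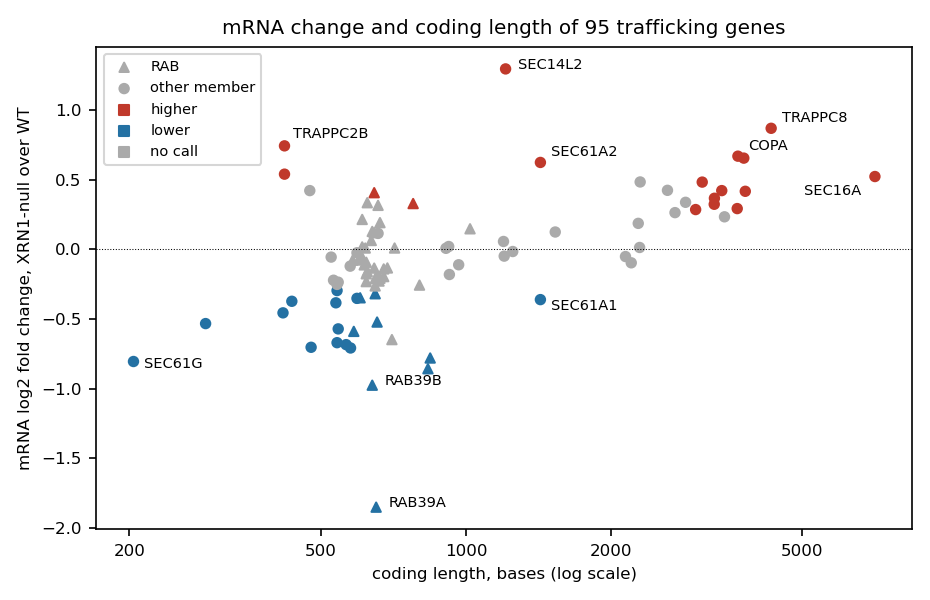
mRNA log2 fold change (y axis) against coding length in bases (x axis, log scale) of the 95 genes, with triangles for RABs and circles for the others, coloured by call. The rises gather at 2000 or more bases (11 of 20) and the falls under 700 bases (18 of 57), while SEC61A1 and SEC61A2 share a length and differ in direction.

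The regulators of these proteins, taken from lists of 234 genes of which 211 were in the table, were examined in the same fit. Of the 25 listed ARF exchange factors and GTPase-activating proteins (GAPs), 12 mRNAs rose and 1 fell (48% and 4%). Over all genes 22.9% were higher and 23.2% lower, and each list here is set beside these shares. They vary with coding length. Of all genes with 2000 or more coding bases 44.7% were higher and 7.89% lower, and of those under 700 bases 4.82% and 51.8%. The lists were not matched for length, and its part in their counts was not tested. GBF1, the exchange factor that activates ARF1 at the early Golgi, rose by 1.09 (FDR 1.37e-05), and ARFGAP2, a GAP of the COPI coat, rose by 1.48 (FDR 2.07e-05). ARFGAP2 was at 47.7 and 58.4 CPM in WT and 146 and 149.8 CPM in XRN1-null, while its RPF went from 32.3 and 39.3 CPM to 46.9 and 47.4 CPM, and its TE fell by 1.12 ± 0.19 (FDR 0.00398).

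Of 31 chaperones, prenylation enzymes and GAPs of RABs 12 rose and 4 fell, among the rises RAB3GAP2 (0.82, FDR 7.73e-05) and TBC1D15 (0.81, FDR 8.78e-05). Of 29 exchange factors and effectors 12 rose and 3 fell, with DENND4C at 1.14 (FDR 2.21e-05) and the early endosome tether EEA1 at 0.57 (FDR 0.000399). Golgi tethers gave 10 rises and 2 falls of 20. NBAS, of the complex that captures COPI vesicles at the ER, was at 34.0 and 35.8 CPM in WT and 76.7 and 75.4 CPM in XRN1-null (1.12, FDR 1.35e-05) and fell in TE by 0.90 ± 0.12 (FDR 0.00129). Of the 9 exocyst subunits, which tether vesicles at the plasma membrane, 5 rose and 0 fell, with EXOC6B at 0.87 (FDR 0.000221). SNAREs gave 4 rises and 3 falls of 24 (16.7% and 12.5%), both shares below those of all genes.

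Genes that handle cargo at the ER had more falls than rises. Of 30 cargo receptors 11 fell and 2 rose, with KDELR1, the receptor that returns ER residents from the Golgi, going from 363 and 348 CPM to 214 and 204 CPM (−0.77, FDR 5.29e-05) and with TMED2, TMED9 and TMED10, p24 proteins of COPI and COPII vesicles, lower by 0.41 to 0.67. Of 19 partners of the translocon 10 fell and 0 rose, among them the translocon-associated SSR1 (−0.66, FDR 0.000235), SRP9 of the signal recognition particle (−0.61, FDR 0.000959) and the accessory subunits of signal peptidase SPCS1, SPCS2 and SPCS3 (−0.48 to −0.57). Together with the falls of SEC11A and SEC11C, all 5 signal peptidase subunits measured were lower.

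Targets and factors of the unfolded protein response, which raises ER chaperones and trafficking genes under ER stress, gave 11 falls and 1 rise of 24. The rise was DDIT3, the transcription factor CHOP (0.57, FDR 0.00133). The falls included the ER chaperone genes CALR, CANX and HSP90B1, the protein disulfide isomerase genes PDIA4 and PDIA6, and XBP1 (−0.33, FDR 0.00239). HERPUD1, of ER-associated degradation, went from 58.1 and 56.6 CPM to 29.9 and 29.1 CPM in mRNA (−0.96, FDR 2.29e-05) and from 63.0 and 52.6 CPM to 29.8 and 24.3 CPM in RPF (−1.06, FDR 0.00368). It was the only one of the 211 listed genes with a called footprint change (0.474%), where 1.77% of all genes were called.

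**Figure D5:**
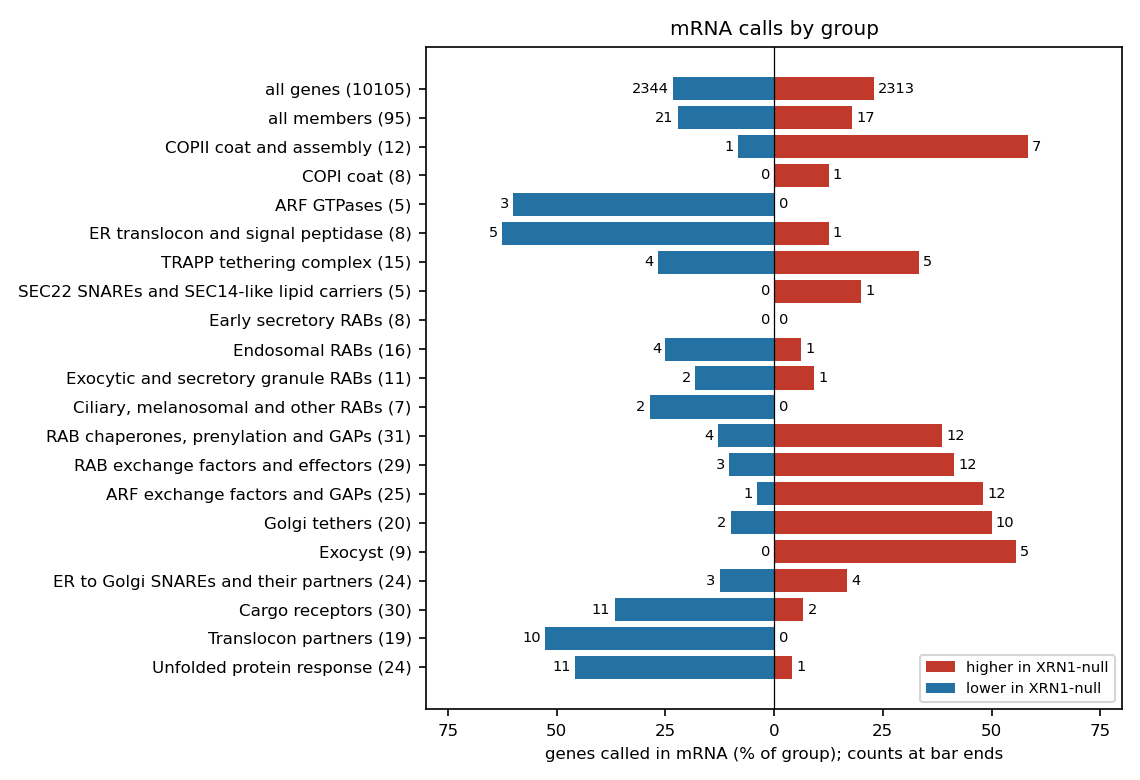
Share of genes called in mRNA (x axis, percent of the group, falls to the left and rises to the right, with counts at the bar ends) for all genes, the 95 trafficking genes, their roles and the lists of partner genes (y axis, number of genes in brackets). COPII genes, exocyst, Golgi tethers and exchange factors lean to rises, and translocon genes, their partners, cargo receptors and the unfolded protein response lean to falls.

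Genes of the coats and the translocon include known targets of the transcription factor XBP1. Promoters of trafficking genes were searched for short motifs on both strands, in RefSeq windows (GRCh38.p14) from 250 bases before to 50 after the start site. Of the 95 genes 84 had a window. The core of the XBP1 element, TGACGTGG, was in 8 of them (9.52%), beside 1.05% of 7897 genes in the table and 0.795% of 27305 promoters. They were ARF1, COPA, COPB1, COPB2, SEC16A, SEC23A, SEC24A and SEC62, with 6 of the 19 coat promoters and none of the RABs. The windows show the motif in capitals within 30 bases, 5′ to 3′ on the strand of the gene, where CCACGTCA is the same motif on the other strand.
COPA, chr1:160343227-160343256, minus strand: gagagggtcgcTGACGTGGaggcgtccgaa
COPB1, chr11:14499841-14499870, minus strand: cccacccccttCCACGTCAgccaaggactc
COPB2, chr3:139389825-139389854, minus strand: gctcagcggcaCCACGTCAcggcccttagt
SEC16A, chr9:136484707-136484736, minus strand: tggccctggtgCCACGTCAgccggactgaa
SEC23A, chr14:39103221-39103250, minus strand: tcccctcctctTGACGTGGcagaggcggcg
SEC24A, chr5:134648595-134648624, plus strand: gtgagagtcggTGACGTGGcggcgaggccg
SEC62, chr3:169966779-169966808, plus strand: ccctcctcgctCCACGTCAgagggaaccgg
ARF1, chr1:228082681-228082710, plus strand: cccggaggcgcTGACGTGGccgccgtcaga
Of these genes COPA, SEC16A and SEC24A rose in mRNA, ARF1 fell and 4 were not called. The motif was in 3 of 15 promoters of genes whose mRNA rose, 1 of 19 of genes whose mRNA fell and 4 of 50 of the others. In ARF1, SEC16A, SEC23A and SEC24A it runs on into ACGTGGC, the Golgi stress element, with which it overlaps.

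The Golgi stress element was in 19 of the 84 promoters (22.6%), beside 4.65% of the genes in the table and 3.30% of all promoters, and in 10 of the 19 coat promoters. It was in 5 of 15 promoters of genes whose mRNA rose, 6 of 19 of genes whose mRNA fell and 8 of 50 of the others. The E-box CACGTG, which overlaps ACGTGGC where a C stands before it, was in 14.3% (10.8% of the table), and the ETS motif CCGGAAGT in 19.0% (10.4% of the table). The cAMP response element TGACGTCA was in 2.38% (3.65% of the table). The element of ER stress, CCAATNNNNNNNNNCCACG, was in 0 of the 84 windows, beside 0.177% of the table. These are matches of letters, not binding sites.

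In WT cells the level of footprints relative to mRNA differed between groups, on a scale that depends on length. As log2 of RPF CPM over mRNA CPM, the median was −0.19 for trafficking genes and −0.29 for all genes, 0.56 for COPI, with 8 of 8 genes above the median of all genes, and −0.46 for RABs, with 18 of 42 above. With RPF taken per coding base and mRNA per base of gene width, the median was 1.61 for RABs, 1.17 for COPI and 0.82 for all genes, so that the RAB median lay above that of COPI instead of below. Among COPI genes the per-length ratio ran from 0.55 in COPE to 1.67 in COPZ1, and among trafficking genes from −1.13 in RAB40B to 4.15 in SAR1B. The order of these groups in WT depends on this choice and is given as a description.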

How the data were processed

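Counts per gene were deposited by the authors for RNA-Seq and Ribo-Seq of WT and XRN1-null HEK293T cells, 2 biological replicates each. Per the methods, reads of rRNA were filtered by the authors using Bowtie2 and the rest aligned to hg19 with TopHat2; they kept footprints of 29 and 30 nt, counted with QuasR and selected genes with an FPKM above 2. Versions, the counting strand, the handling of reads with several positions and whether both mates of a pair were counted are not given in the sources used here. The deposited comparisons (log2 fold changes, p-values and FDR from edgeR, and TE from RiboDiff) were not used.

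Groups came from the labels. The counts were analysed in R 4.3.3 with edgeR 4.0.16 (TMM factors within each assay, quasi-likelihood test, Benjamini-Hochberg over 10105 genes, called at an FDR below 0.005, genotype as the only term). TE was the interaction of assay and genotype in edgeR over all 8 libraries, since RiboDiff was not installed. Each SE was taken as the size of the change over the root of its F statistic. No low counts were filtered. The per-library log2 ratios added 0.5 CPM. With 2 libraries a group, p-values measure the spread between these libraries. The test was tried on simulated counts. Alternatives were other scalings, DESeq2 1.42.0, edgeR's likelihood ratio test, a filter of 10 counts, an FDR of 0.05, thinned RNA-Seq, a replicate block and leaving out each library. Sequences and annotation came from GENCODE on GRCh37 and, for promoters, RefSeq on GRCh38.p14; these builds were kept apart.

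The members, gene lists, motifs and tests were chosen with earlier results of these data known. Named were XRN1, members called in TE, the 5 largest rises and falls in mRNA, all coat, SEC61 and ARF genes, the highest and lowest WT levels per length, paralogs with unlike calls and members whose mRNA and RPF moved oppositely. The remaining members, the genes of the partner lists and the neighbours of SEC61A1 and SEC61A2 were named after values were seen. TRAPPC2B replaced an older symbol in the TRAPP list. RAB4B-EGLN2 was left out as a hyphenated name. One gene of the partner lists is not reported here.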

Additional observations from a re-analysis of the deposited data

How the results depend on the processing

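No value of a named gene that was called, before or under an alternative, changed sign. Of the 1932 values of named genes over the alternatives, 64 changed sign with no call either way, 12 of them for mRNA (COPG2, RAB22A, RAB4B, SAR1B, SEC13 and SEC23A). With respect to the threshold, 1808 stayed on the same side of the threshold, 77 gained a call and 47 lost it. For mRNA, 17 members rose and 21 fell. At an FDR below 0.05, 57 members were called, 26 of them as rises, where 67.1% of all genes were called. With RNA-Seq thinned to the mean Ribo-Seq total, 26 members were called, 8 of them as rises, where 30.7% of all genes were called. Leaving out 1 library gave 6 to 28 rises and 11 to 29 falls, the lowest without XRN1-null RNA-Seq replicate 1 and the highest rises without WT RNA-Seq replicate 2. The other scalings, DESeq2 and the filter of 10 counts gave 17 to 22 rises and 15 to 21 falls.

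For RPF, 0 members were called. An FDR below 0.05 gave 6 lower, and leaving out 1 library gave 0 to 12 higher and 0 to 10 lower, most without WT Ribo-Seq replicate 2. For TE, 1 member fell and 0 rose. An FDR below 0.05 gave 3 lower and 1 higher, the likelihood ratio test 2 lower and 1 higher, thinned RNA-Seq 0 lower, and leaving out 1 library 0 to 1 lower. The median WT log2 ratio of RPF to mRNA, −0.19, was −0.12 without WT Ribo-Seq replicate 2 and −0.20 to −0.12 over all such fits. With fewer libraries the test has fewer samples; the cause of the other shifts was not tested.

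The labels number the replicates but do not say what a number shares, and with 2 pairs a genotype the pairing cannot be settled. Deviations of same-numbered libraries correlated at 0.19 in RNA-Seq and 0.0803 in Ribo-Seq between genotypes, and between assays at 0.355 in WT and 0.0326 in XRN1-null. With a replicate block, mRNA had 22 rises and 21 falls, with all 38 calls kept. RPF had 2 rises and 5 falls under the replicate block where it had 0, in a fit that called 12.7% of all genes, and TE had 1 fall under either block.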
